A study of Rattus norvegicus with 36 samples.

Results

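Sprr1a, a gene of the small proline-rich family, and the epithelial keratin genes Krt7, Krt8, Krt18, Krt19, Krt20 and Krt23 were followed across rat colon and colon tumors. Members were the rows of the RNA-seq table with these symbols. Rows were found for 6 of the 7 genes, out of 17352 named genes in the table, and Krt7 was not analysed here. Sprr1a was chosen with its high level in tumors of control-fed rats against normal-looking tissue (PCT vs. PCN) already known. For that comparison, and for PCT against WT colon, the values of all members are therefore given as a description with no test.

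RNA was taken at 30 weeks of age from male F344 rats, either wild type (WT) or Pirc, which carry the Apc am1137 allele and develop colon tumors. From 4 weeks of age the rats ate AIN93 control diet or AIN93 with 10% w/w freeze-dried baby spinach (SPI). WCN and WSN were normal colonic mucosa of WT rats on control diet and SPI. PCN and PSN were normal-looking colonic mucosa of Pirc rats on those diets, and PCT and PST were their colon tumors. Each of the 6 groups had 3 libraries, and tumor and normal-looking tissue were taken from the same Pirc rats. The Apc allele is carried in the germline, so normal-looking Pirc tissue carries it as well, and WT and Pirc tissue differ in the whole animal. Values are RPKM, reads scaled for gene length and for the mapped reads of the library, which makes levels of different genes comparable per length. RPKM holds no read totals, so the reads behind each value are unknown, and a gene listed at 0 may have had too few reads to be seen.

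Keratins are the intermediate filament proteins of epithelial cells and assemble as pairs of a type I and a type II chain. In the simple epithelium that lines the colon, the type II chain Krt8 pairs with the type I chains Krt18, Krt19 and Krt20, and Krt20 marks mature cells near the luminal surface. Small proline-rich proteins are better known from skin and other stratified epithelia, where transglutaminases cross-link them into the cornified envelope, a tough layer beneath the membrane of dying surface cells.

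The bases just upstream of the annotated start sites are shown for the 4 members whose PCT and PCN libraries did not overlap, so that the regulatory letters can be read beside the levels. Promoter windows came from RefSeq (GRCr8), which held 5 of the 7 members. Krt7 and Krt19 are named only. Each run gives the 250 bases before the start site, 5′ to 3′ on the strand of the gene, with motif matches in capitals. The Sprr1a window is chr2:180752626-180752875 (minus strand), the Krt8 window chr7:135010340-135010589 (minus strand), the Krt18 window chr7:135035918-135036167 (plus strand) and the Krt20 window chr10:84890286-84890535 (minus strand).
Sprr1a: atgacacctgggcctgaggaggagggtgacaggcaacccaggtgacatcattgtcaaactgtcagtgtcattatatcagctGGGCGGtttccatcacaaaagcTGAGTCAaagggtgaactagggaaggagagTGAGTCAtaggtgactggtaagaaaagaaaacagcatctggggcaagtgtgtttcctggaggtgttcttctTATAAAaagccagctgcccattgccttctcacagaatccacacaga
Krt8: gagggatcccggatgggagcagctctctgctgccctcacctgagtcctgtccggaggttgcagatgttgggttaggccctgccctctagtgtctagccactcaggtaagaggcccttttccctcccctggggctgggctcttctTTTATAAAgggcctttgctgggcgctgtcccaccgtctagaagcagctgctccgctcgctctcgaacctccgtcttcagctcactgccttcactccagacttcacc
Krt18: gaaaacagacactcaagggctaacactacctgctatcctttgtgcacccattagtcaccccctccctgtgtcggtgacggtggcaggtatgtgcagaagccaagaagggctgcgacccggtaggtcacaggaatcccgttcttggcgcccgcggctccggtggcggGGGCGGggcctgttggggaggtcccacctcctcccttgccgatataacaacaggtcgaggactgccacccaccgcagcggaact
Krt20: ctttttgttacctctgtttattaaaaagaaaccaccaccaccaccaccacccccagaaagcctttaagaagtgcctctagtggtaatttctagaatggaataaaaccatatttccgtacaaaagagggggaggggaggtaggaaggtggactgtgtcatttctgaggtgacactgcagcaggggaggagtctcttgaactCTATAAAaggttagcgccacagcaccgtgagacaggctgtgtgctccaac

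Motifs were searched on both strands as TGANTCA for AP-1, TATAAA for the TATA box, TTTATNG for CDX factors, CTTTGAT for TCF/LEF factors and GGGCGG for the GC box. The Sprr1a window held 2 AP-1 matches, which begin 147 and 117 bases before the start site, a TATA box 46 bases before it and a GC box 169 bases before it. Of 27457 windows of this length, 6.36% held an AP-1 match and 0.291% held at least 2. The Krt8 window held TATAAA and its reverse complement, sharing bases, 104 and 106 bases before the start site. The Krt18 window held a GC box and no TATAAA, and the Krt20 window a TATA box at 49 bases that shares letters with a CDX match. A TATA box was present in 13.1% of all windows, a GC box in 32.4% and a CDX match in 10.1%. None of the windows of Sprr1a, Krt8, Krt18, Krt20 and Krt23 held the TCF/LEF letters, which 3.18% of all windows held. A match is a stretch of letters, and binding was not measured.

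**Figure D1:**
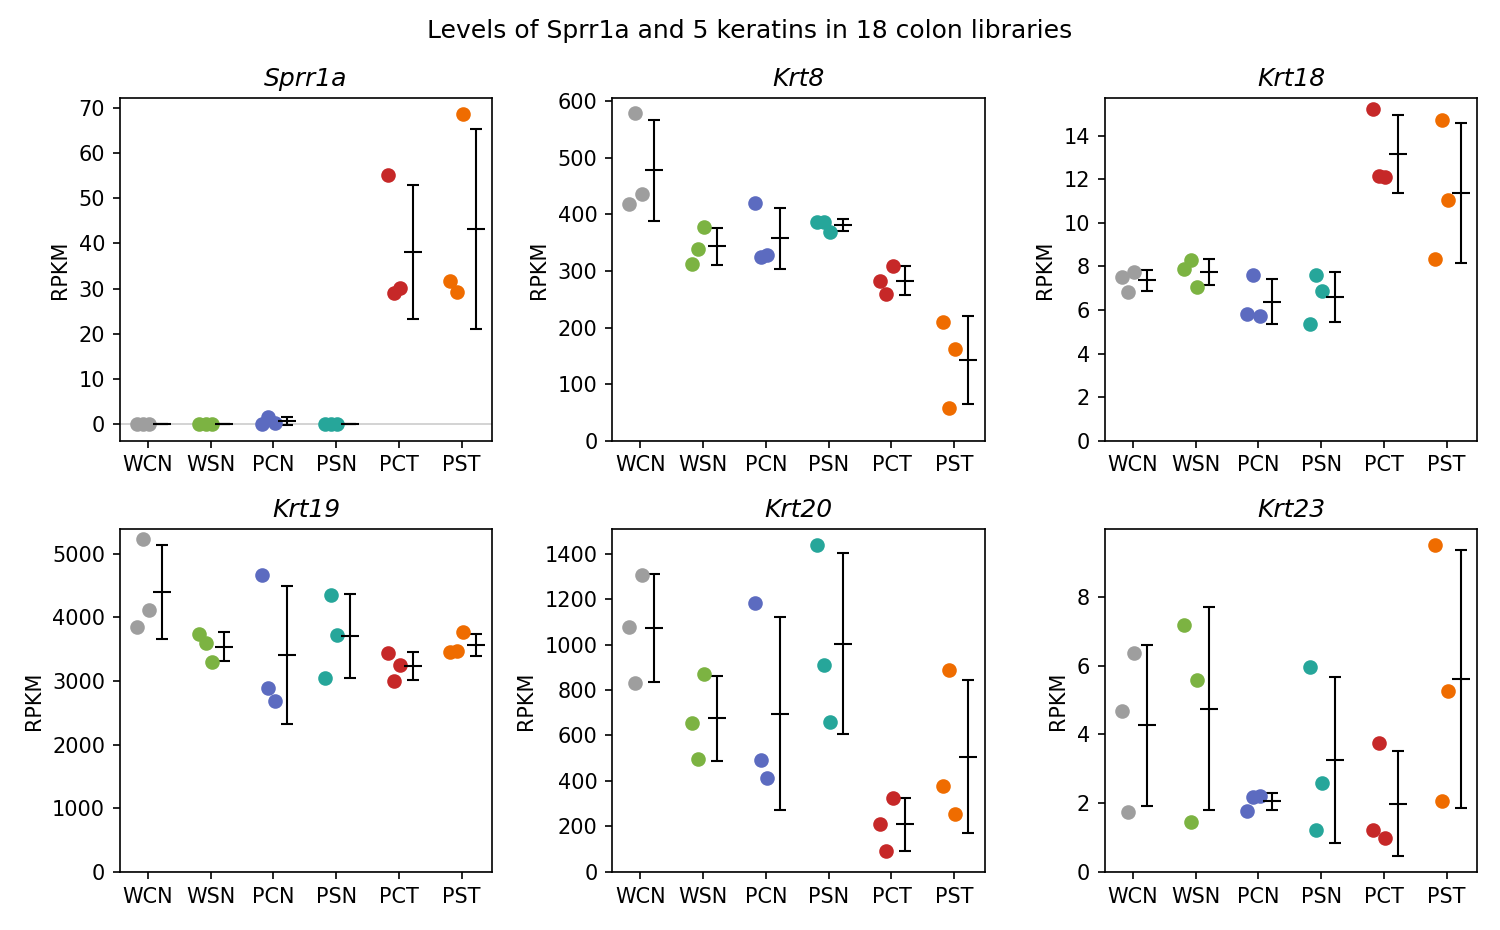
RPKM of each member (vertical axes, linear, one scale per gene) in the 18 libraries, grouped as WT normal colon (WCN, WSN), Pirc normal-looking colon (PCN, PSN) and Pirc tumors (PCT, PST); points are libraries, and the bar beside them is the mean ± SD of 3. Sprr1a sits at 29.09 to 68.77 RPKM in tumors and at 1.63 or below elsewhere, while Krt19 is at 2693.37 or above in every library.

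Sprr1a was found in tumors and hardly anywhere else. It was listed at 0 in 8 of the 12 normal libraries, including all 3 of WCN. The remaining normal values were 0.07 RPKM in WSN 2, 0.08 in PSN 1, 0.22 in PCN 3 and 1.63 in PCN 2. In tumors it stood at 55.11, 29.09 and 30.03 RPKM in PCT 1 to 3, and at 31.65, 29.19 and 68.77 RPKM in PST 1 to 3. The lowest tumor value was 17.8 times the highest normal value, and no tumor library overlapped any normal library.

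In spinach-fed rats, PST vs. PSN, Sprr1a rose by 6.27 on the scale log2(RPKM + 0.5) (SE 0.43, n = 3 and 3, adjusted p = 7.15e-07 in limma). Only 0.0347% of the 11544 genes tested had a larger log2 fold change. Against WT rats on the same diet, PST vs. WSN, the log2 fold change was 6.27 (SE 0.43, adjusted p = 4.28e-07 in limma). Sprr1a passed the filter on low values, 1 RPKM in 3 libraries, only through its tumor libraries, so it had to differ once it was tested. Small proline-rich genes resemble each other, and how reads shared between such copies were counted is not given in the sources used here. In PCT vs. PCN, the comparison it was chosen from, the log2 fold change was 5.33 (SE 0.43), and 5.94 without PCN 2. The size of these fold changes follows the 0.5 added before the logarithm, because the normal values lie at or near 0.

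The PCN 2 library also held the highest normal value of some, though not all, of the other genes that were high in tumors and named here. Tgm1 stood at 1.80 RPKM there (next highest normal library 0.33), Ppl at 10.3 (5.25), Krt36 at 12.17 (2.83) and Krt17 at 1.30 (0.64). For Cnfn the highest normal library was PSN 1 (0.27 RPKM, against 0.24 in PCN 2), and for Krt15 it was PCN 1 (0.68, against 0.32 in PCN 2). Tgm1 encodes transglutaminase 1, which cross-links small proline-rich proteins in skin. The part of this library in the Sprr1a value of PCN was not tested, and without it Sprr1a differed by 0.26 between PCN and WCN on the log2 scale, against 0.87 with it.

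Krt8 and Krt18, the founding pair of simple epithelium, are neighbouring genes in RefSeq and went in opposite directions in tumors. Krt8 stood at 417.77, 579.49 and 435.21 RPKM in WCN, and at 312.79, 339.44 and 378.25 in WSN. In PCN it stood at 420.15, 325.44 and 328.01 RPKM, and in PSN at 385.90, 387.25 and 368.29. In PCT it stood at 281.45, 258.36 and 308.92 RPKM, and in PST at 209.00, 57.02 and 161.97. Every tumor library was below every normal library, and every PST library was below every PCT library.

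Krt8 fell by 1.61 in PST vs. PSN on the log2 scale (SE 0.32, n = 3 and 3, adjusted p = 0.00103 in limma). It also fell by 1.45 in PST vs. WSN (SE 0.32, adjusted p = 0.00199 in limma). The lowest value was that of PST 2. The log2 fold change in PST vs. PSN was −1.05 without that library, with an adjusted p of 0.000278 in limma. In PCT vs. PCN the log2 fold change of Krt8 was −0.33 (SE 0.32), a smaller distance between groups that did not overlap.

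Krt18 was far lower per length than its partner and higher in tumors. It stood at 7.51, 6.83 and 7.74 RPKM in WCN, 7.86, 8.29 and 7.07 in WSN, 5.81, 7.58 and 5.74 in PCN, and 5.36, 7.58 and 6.85 in PSN. In PCT it stood at 15.23, 12.15 and 12.10 RPKM, and in PST at 8.33, 14.72 and 11.03. Every tumor library lay above every normal library, the closest being PST 1 at 8.33 against WSN 2 at 8.29.

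Krt18 rose by 0.72 in PST vs. PSN on the log2 scale (SE 0.19, n = 3 and 3, adjusted p = 0.00768 in limma). Fitted on those 6 libraries alone, its adjusted p was 0.0584. In PST vs. WSN the log2 fold change was 0.49 (SE 0.19) with an adjusted p of 0.0494 in limma, a call that most alternatives lost. In PCT vs. PCN it was 0.99 (SE 0.19). RefSeq names 6 pseudogenes after Krt18 and 1 after Krt8, and how reads shared with such copies were counted is not given in the sources used here, so the RPKM of this pair is uncertain.

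The RPKM ratio within the pair moved accordingly, and it carries the uncertainty over shared reads given above. Krt8 RPKM was 39.8 to 84.8 times Krt18 RPKM in the 12 normal libraries, 18.5 to 25.5 times in PCT and 3.87 to 25.1 times in PST. The value of 3.87 was that of PST 2. The tumor and normal ranges of this ratio did not overlap.

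**Figure D2:**
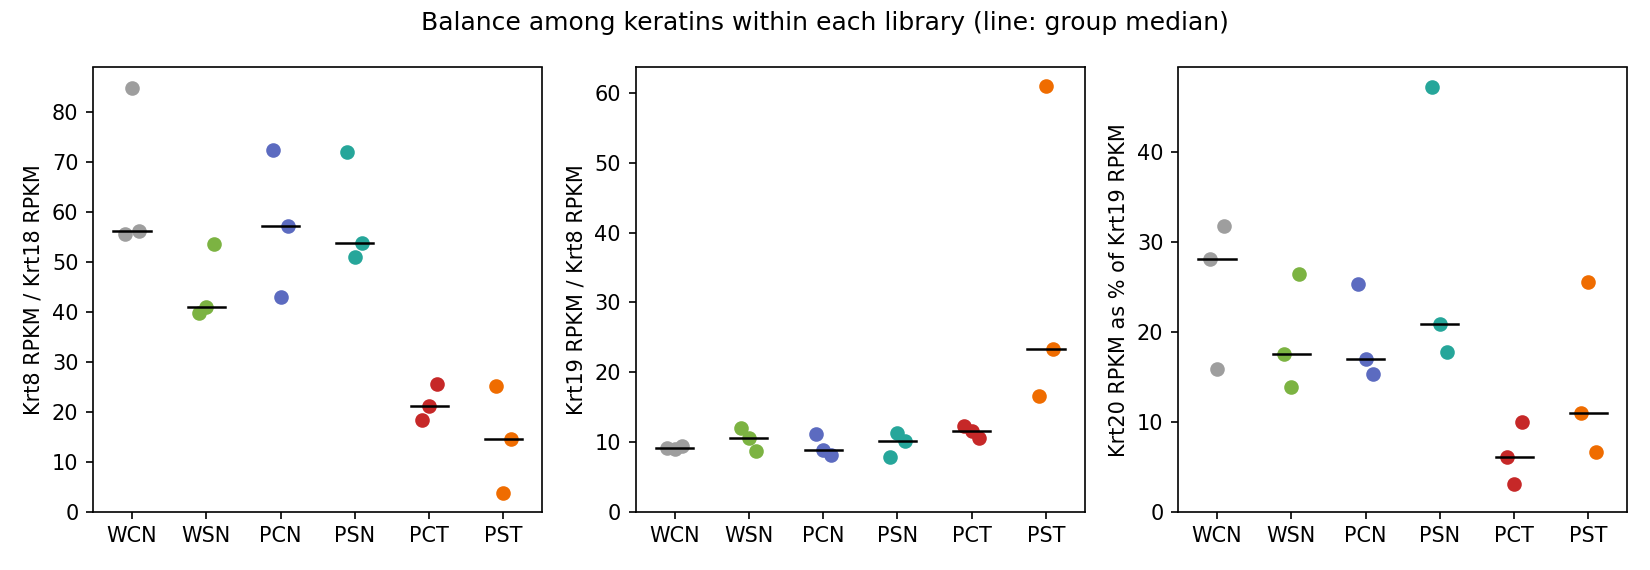
Ratios within each library, on linear axes from 0: Krt8 over Krt18 (left), Krt19 over Krt8 (middle) and Krt20 as a percentage of Krt19 (right), all from RPKM; points are libraries and lines are group medians of 3. Krt8 over Krt18 reaches 25.5 at most in tumors and 39.8 at least in normal tissue, and PST holds the 3 highest values of Krt19 over Krt8.

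Krt19, a type I keratin without the tail domain of other keratins, was the most abundant member in every library. It stood at 3848.20, 5241.15 and 4112.52 RPKM in WCN, 3740.07, 3591.24 and 3292.75 in WSN, 4663.64, 2890.63 and 2693.37 in PCN, and 3052.03, 4360.53 and 3718.69 in PSN. The tumor values were 3446.84, 3007.58 and 3260.00 RPKM in PCT and 3458.42, 3477.52 and 3770.96 in PST. All tumor libraries lay within the range of the normal ones.

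The log2 fold change of Krt19 was −0.04 in PST vs. PSN (SE 0.20, n = 3 and 3, adjusted p = 0.881 in limma) and −0.03 in PCT vs. PCN (SE 0.20). No direction is read from these values, whose sign turned when the libraries were scaled to a list of general epithelial genes, to 0.04 and 0.10. Krt19 RPKM was 7.91 to 11.96 times Krt8 RPKM in normal tissue and 10.6 to 12.2 times in PCT. In PST it was 16.5 to 61.0 times, above every other library.

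Krt20, the keratin of mature surface cells, varied more within groups than Krt8 or Krt19. It stood at 1079.29, 830.38 and 1307.32 RPKM in WCN, 655.43, 498.32 and 872.10 in WSN, 1182.84, 491.27 and 412.47 in PCN, and 1439.67, 911.70 and 660.08 in PSN. The tumor values were 209.31, 93.57 and 324.57 RPKM in PCT, and 379.62, 888.74 and 252.63 in PST. All PCT libraries were below all normal libraries, whereas PST 2 lay among the normal libraries and the other two PST libraries below them.

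Krt20 had a log2 fold change of −1.11 in PST vs. PSN (SE 0.51, n = 3 and 3), which did not pass the threshold (adjusted p = 0.0912 in limma). Without PST 2 it was −1.62 with an adjusted p of 0.0222 in limma. For PCT vs. PCN it was −1.74 (SE 0.51) with all libraries. Krt20 made up 13.9 to 47.2% of the RPKM of Krt19 in normal tissue, 3.11 to 9.96% in PCT and 6.70 to 25.6% in PST. The library PST 2 thus held the lowest Krt8, the highest Krt18 of its group and the highest Krt20 of all tumors.

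Krt23, a type I keratin of low level here, showed no separation of tissue. It stood at 4.69, 1.75 and 6.37 RPKM in WCN, 7.20, 1.46 and 5.60 in WSN, 1.77, 2.17 and 2.21 in PCN, and 5.95, 1.23 and 2.59 in PSN. The tumor values were 1.22, 3.75 and 0.99 RPKM in PCT, and 9.52, 2.05 and 5.28 in PST. The libraries of every tumor group overlapped those of the normal group on the same diet. The log2 fold change was 0.70 in PST vs. PSN (SE 0.63, n = 3 and 3, adjusted p = 0.392 in limma).

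In PST vs. PSN, 3 of 6 members passed the test, 2 higher and 1 lower, against 42.3% of all genes tested (25.9% higher and 16.5% lower). One of the higher members was Sprr1a, which had to differ once it passed the filter through its tumor libraries. In PST vs. WSN the same 3 members passed, against 43.9% of all genes, and this comparison shares its tumor libraries with the former. In PCT vs. PCN the groups did not overlap for 4 of 6 members, Sprr1a and Krt18 higher and Krt8 and Krt20 lower, against 50.1% of all genes. In PCT vs. WCN they did not overlap for 5 of 6 members, Krt19 being added among the lower, against 55.3% of all genes. The members are too few, and were chosen with these results in view, for their share to be set apart from that of all genes.

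**Figure D3:**
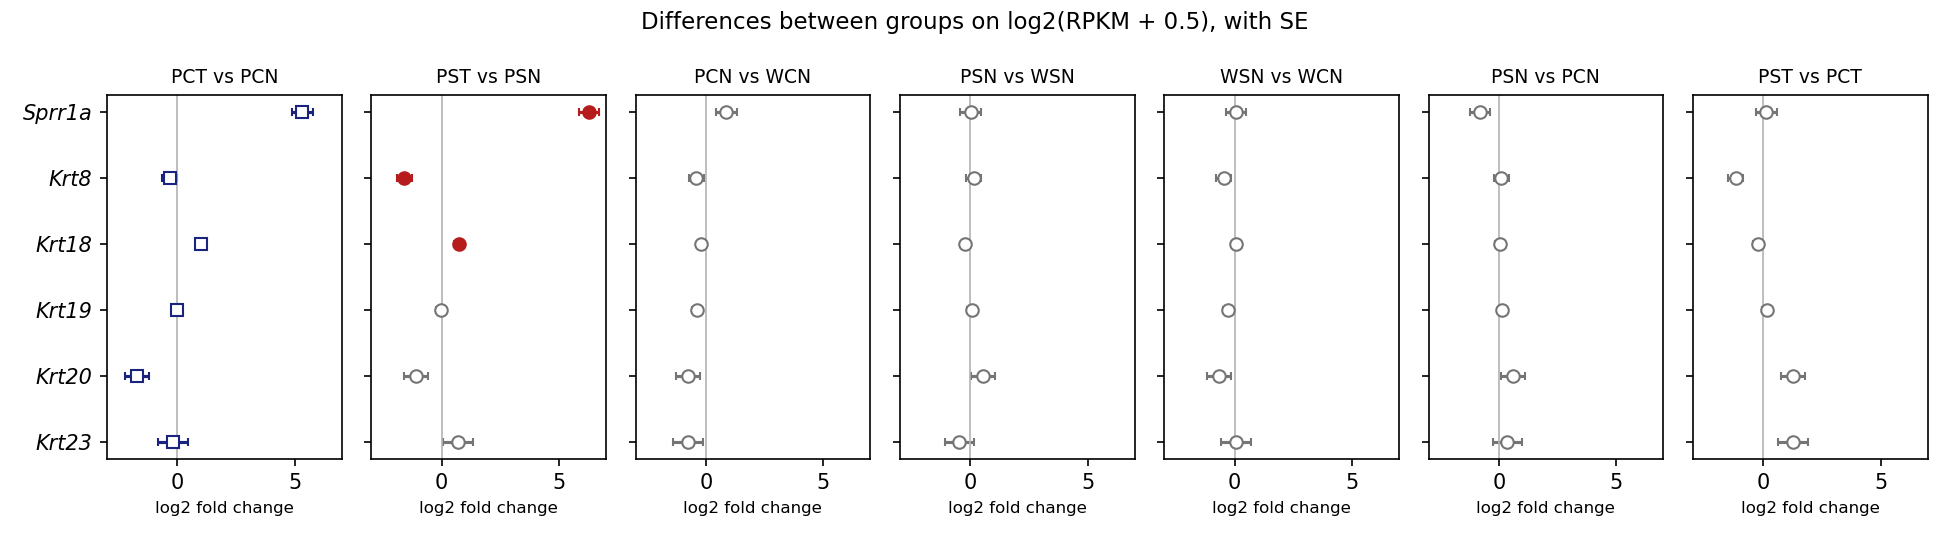
Log2 fold changes on log2(RPKM + 0.5) with SE (horizontal axes) for each member (rows) in 7 comparisons of 3 against 3 libraries. Filled circles passed an adjusted p of 0.05 in limma, open circles did not, and open squares mark PCT vs. PCN, given with no test; filled circles stand for Sprr1a, Krt8 and Krt18 in PST vs. PSN alone.

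Normal-looking Pirc tissue was compared with WT tissue to see whether the members differ outside the tumors. This tissue came from rats that already had colon tumors, so differences that precede a tumor were not tested. In PCN vs. WCN, 0 of 6 members passed in limma, against 0.13% of all genes. An unadjusted p under 0.05 was found for 0 members and 1545 genes. The log2 fold changes ran from −0.76 for Krt20 and Krt23 to 0.87 for Sprr1a, which the single PCN 2 library raised. In PSN vs. WSN, 0 of 6 members passed in limma and 0 had an unadjusted p under 0.05, with 0% of all genes called and 937 at an unadjusted p under 0.05.

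The spinach diet was compared with control diet within each tissue. In WSN vs. WCN, 0 of 6 members passed in limma and 0 had an unadjusted p under 0.05 (all genes, 0% called and 376 at an unadjusted p under 0.05). Krt8 and Krt19 were lower in all WSN libraries than in all WCN libraries, with log2 fold changes of −0.46 (SE 0.32) and −0.30 (SE 0.20). Of all genes, 2.43% had groups that did not overlap in that direction. In PSN vs. PCN, 0 of 6 members passed in limma and 0 had an unadjusted p under 0.05, against 0.00866% of all genes called and 614 genes at an unadjusted p under 0.05.

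In tumors, PST vs. PCT, 0 of 6 members passed in limma, as did 0% of all genes, while 2 members and 920 genes had an unadjusted p under 0.05. These members were Krt8, with a log2 fold change of −1.18 (SE 0.32, unadjusted p = 0.00209, adjusted p = 0.492 in limma), and Krt20, with 1.25 (SE 0.51, adjusted p = 0.552 in limma). Sprr1a differed by 0.13 (SE 0.43, adjusted p = 0.954 in limma). Groups of Krt8 and Krt19 did not overlap, as for 10.3% of all genes.

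Whether the tumor difference depended on diet was tested as an interaction. No gene passed in limma (0%), and 1 member and 456 genes had an unadjusted p under 0.05. That member was Krt8, whose difference between PST vs. PSN and PCT vs. PCN was −1.27 (SE 0.45, adjusted p = 0.999 in limma). Sprr1a had an interaction of 0.93 (SE 0.61, adjusted p = 0.999 in limma), and 0.32 without PCN 2. The interaction contains PCT vs. PCN, the comparison Sprr1a was chosen from, so for Sprr1a it is a description and no independent test. The interaction of genotype and diet in normal tissue passed for 0 of 6 members in limma, with 0 members and 585 genes at an unadjusted p under 0.05 and 0% of all genes called.

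Partners of small proline-rich proteins did not move as one. Of 27 listed genes of the cornified envelope and its cross-linking, 15 were in the table and 8 were tested. Of these 8, 3 rose and 3 fell in PST vs. PSN (median log2 fold change −0.14, against 0.12 over all genes). The shares over all genes were 25.9% higher and 16.5% lower. The transglutaminase Tgm1 was at 0.15 to 0.25 RPKM in PSN and 24.11 to 77.12 in PST (log2 fold change 5.80, SE 0.53, adjusted p = 3.99e-06 in limma). Tgm1 passed the filter only through tumor libraries, so it had to differ once it was tested. Its relative Tgm3, also a cross-linking enzyme of skin and hair, was at 202.54 to 465.56 RPKM in PSN and 18.69 to 40.57 in PST (−3.51, SE 0.88, adjusted p = 0.00583 in limma). The envelope scaffold Evpl fell by 0.50 (SE 0.18, adjusted p = 0.0329 in limma), and the protease inhibitor Cst6 had 0.04 (SE 0.33, adjusted p = 0.931 in limma).

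The other called genes of this list, named after their values were seen, were Cnfn (cornifelin) and Ppl (periplakin, which pairs with envoplakin), both higher, and the protease Klk8, lower. Like Tgm1, Cnfn passed the filter only through tumor libraries, so 2 of the 3 genes called higher had to differ. Of the 8 genes, 3 were called higher and 3 lower in PCT vs. PCN as well, where 32.7% of all genes were called. The only other small proline-rich gene in the table, Sprr3, was listed at 0 in all 18 libraries, as was Ivl (involucrin), a main component of the envelope in skin.

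Markers of squamous cells differed in level. Krt5 was listed at 0 in all 18 libraries, and an exact 0 may be a failed estimate. Krt14 was listed at 0 in every normal library and at 0.22 to 0.74 RPKM in tumors. Krt4 reached 0.25 RPKM in normal libraries and 1.67 in tumors. Krt13 reached 0.26 RPKM at most, and Tp63, the regulator of squamous basal cells, 0.02. These were picked as defining markers after their values were seen. Krt15 reached 10.52 RPKM in PST and Col17a1, a hemidesmosome collagen, 12.22 in PCT. The summed level of the list of squamous basal cell markers was 1.34 to 4.10 RPKM in normal libraries, 11.1 to 23.4 in PCT and 4.39 to 20.8 in PST. Of its 3 tested members, Krt15 and Dsg3 were called in PST vs. PSN, where 42.3% of all genes were called. Krt15 and Dsg3 both passed the filter only through tumors and so had to differ.

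Of the 45 keratin genes in the table, 27 were below 1 RPKM in every library and 15 passed the filter. Among keratins of stratified epithelium, 4 of 5 tested rose in PST vs. PSN and 0 fell (median log2 fold change 2.21). Over all genes, 25.9% rose and 16.5% fell there (median 0.12). Of the 5 keratins, 3 (Krt15, Krt17 and Krt80) passed the filter only through tumors and so had to differ. The other called keratin, Krt75, passed the filter through normal libraries as well. It was at 0.46 to 1.34 RPKM in PSN and 2.15 to 5.64 in PST (1.61, SE 0.43, adjusted p = 0.00688 in limma). Krt17, a keratin of injured and hyperproliferative skin, was at 0.09 to 0.32 RPKM in PSN and 5.15 to 6.79 in PST (3.26, SE 0.36, adjusted p = 1.19e-05 in limma). Krt15, a basal keratin, was at 0.07 to 0.28 RPKM in PSN and 1.11 to 10.52 in PST (2.21, SE 0.64, adjusted p = 0.0118 in limma). Krt10 was at 2.04 to 2.62 RPKM in PSN and 2.84 to 3.95 in PST, and did not pass (0.35, SE 0.22, adjusted p = 0.205 in limma).

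A keratin of hair and nail reached far higher levels than these. Krt36 stood at 127.26, 242.82 and 46.58 RPKM in PCT and at 130.79, 24.17 and 285.68 in PST, against 0 to 12.17 in the normal libraries. It rose by 5.82 in PST vs. PSN (SE 0.87, adjusted p = 0.000142 in limma). Krt84 reached 116.39 RPKM in PST 1 and 1.00 in PST 2, and its log2 fold change of 1.88 (SE 1.09) did not pass (adjusted p = 0.180 in limma). Of the 21 listed hair and nail keratins, 20 were in the table and 4 were tested. Of these 4, 2 were called higher and 0 lower in PST vs. PSN, against 25.9% and 16.5% of all genes. Krt83, 1 of the 4, passed the filter only through tumors.

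Desmosomes and their plaque proteins tie keratin filaments to the cell border. Of 15 tested genes of desmosomes and keratin anchors, 8 rose and 0 fell in PST vs. PSN (median 0.49). In PCT vs. PCN, 7 rose and 0 fell (median 0.48). Over all genes, 25.9% rose and 16.5% fell in PST vs. PSN (median 0.12), and 32.7% were called in PCT vs. PCN (median 0.13). Of these 15, 3 (Dsc3, Dsg3 and Dsg4) passed the filter only through tumor libraries and so had to differ. Dsc3, a desmosomal cadherin of stratified epithelium, was at 0 to 0.02 RPKM in PSN and 1.35 to 10.6 in PST. Itgb4, the hemidesmosome integrin, rose by 0.49 (SE 0.19, adjusted p = 0.0425 in limma). Perp, a desmosomal membrane protein, had −0.19 (SE 0.18, adjusted p = 0.427 in limma).

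**Figure D4:**
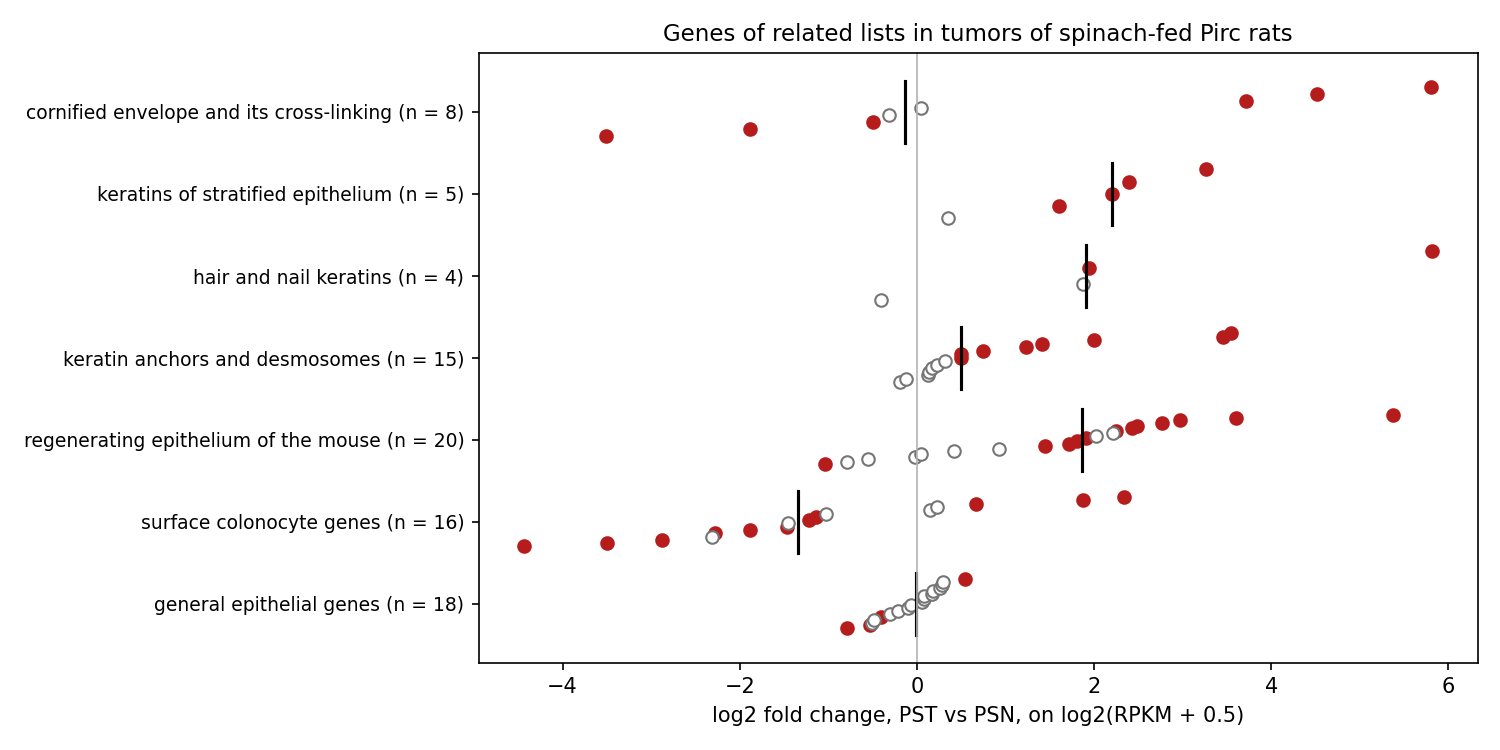
Log2 fold change in PST vs. PSN (horizontal axis, on log2(RPKM + 0.5)) of each tested gene in 7 lists (rows, with the number tested); filled points passed an adjusted p of 0.05 in limma, open points did not, and black lines are list medians. Cornified envelope genes lie on both sides of 0, from −3.51 for Tgm3 to 5.80 for Tgm1, while surface colonocyte genes have a median of −1.34.

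Genes of surface colonocytes, the cells that Krt20 marks, were counted as a list of their own. Of 16 tested, 8 fell and 3 rose in PST vs. PSN (median −1.34), and 8 fell and 2 rose in PCT vs. PCN (median −1.29). Over all genes, 16.5% fell and 25.9% rose in PST vs. PSN (median 0.12), and 32.7% were called in PCT vs. PCN (median 0.13). Guca2a, the peptide guanylin of the surface epithelium, was at 2145.80 to 6848.66 RPKM in PSN and 470.77 to 926.21 in PST (−2.28, SE 0.47, adjusted p = 0.00134 in limma). Aqp8, a water channel of the colon surface, fell by 4.43 (SE 1.11, adjusted p = 0.00559 in limma). Clca4 rose by 2.34 (SE 0.66, adjusted p = 0.0109 in limma).

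Of 20 tested genes of regenerating mouse epithelium, a state that Sprr1a itself is known to mark in the mouse intestine, 11 rose and 1 fell in PST vs. PSN (median 1.86). The counts in PCT vs. PCN were 10 higher and 1 lower (median 1.07). Over all genes, 25.9% rose and 16.5% fell in PST vs. PSN (median 0.12), and 32.7% were called in PCT vs. PCN (median 0.13). Il33, an alarmin cytokine, fell by 1.04 (SE 0.37, adjusted p = 0.0329 in limma).

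Marker levels of other cell types moved with tissue, and in bulk RNA fewer cells of a type cannot be told apart from less RNA per cell. Smooth muscle genes summed to 1367 to 9506 RPKM in normal libraries and 184 to 382 in tumors, and all 10 fell in PST vs. PSN. Leukocyte genes summed to 22.0 to 94.7 RPKM in normal libraries, 918 to 1161 in PCT and 229 to 1760 in PST, and 5 of 7 rose in PST vs. PSN, with 1 of the 7 passing the filter only through tumors. General epithelial genes summed to 5507 to 6813 RPKM in normal libraries and 5292 to 5968 in tumors. Of these 18 genes, 1 was called higher and 3 lower in PST vs. PSN. The shares over all genes in that comparison were 25.9% higher and 16.5% lower.

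Epcam, an adhesion protein of all colon epithelium, was high in every group (group means of 1241 to 1707 RPKM), and fell in PST vs. PSN by 0.41 (SE 0.13, adjusted p = 0.0235 in limma). Mesothelial genes summed to 2.12 RPKM at most. In PST vs. PSN, fibroblast genes were called higher for 1 of 8 and lower for 0. Of the urothelial genes, with sums of 0.41 to 5.06 RPKM, 1 of 2 rose there. That gene was Upk3a, which passed the filter only through tumors and so had to differ. Over all genes, 25.9% were called higher and 16.5% lower in that comparison. The part of these cell types in the member values was not tested. With libraries scaled to the general epithelial genes, Krt8 differed by −1.53 and Krt18 by 0.80 in PST vs. PSN, both still called.

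The genes whose levels followed Sprr1a most closely were sought among the 9336 genes whose mean reached 5 RPKM in some group, by Pearson r of log2(RPKM + 0.5) over all 18 libraries. These were Slc35f6 (r = 0.988), the neutrophil chemokine Cxcl3 (0.987), Samd5 (0.985), Sh3kbp1 (0.984), Gsdma (0.980), a gasdermin, and Cdk14 (0.980). Cxcl3 was at 0 to 0.79 RPKM in normal tissue and at least 5.03 in tumors. Slc35f6 was at 14.0 to 24.0 RPKM in normal tissue and at least 50.27 in tumors. Such correlations rest on tumor and normal libraries lying apart and are descriptive.

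Krt20 was followed most closely by the chloride exchanger Slc26a3 (r = 0.917), Pmp22 (0.901), Klk8 (0.900), Card19 (0.899), the carbonic anhydrase Car4 (0.897) and Prom1 (0.896). For Krt23 the highest were Lrp11 (0.805), Prr15 (0.796) and Crat (0.765), then Car2 (0.763), Hspb1 (0.754) and P2rx2 (0.748). Among members, Sprr1a correlated over the 18 libraries at 0.84 with Krt18, −0.73 with Krt20, −0.69 with Krt8, −0.31 with Krt19 and −0.05 with Krt23. Krt8 and its partner Krt18 correlated at −0.66.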

How the data were processed

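Colonic RNA-seq libraries of Pirc and WT rats were made from poly(A)-selected RNA with a directional paired-end protocol. Bowtie2 and DESeq2 are named in the submitters' processing notes. Which settings, build and annotation they used is not given in the sources used here. As expression values the authors deposited RPKM, reads scaled by gene length and by mapped reads of the library, to 2 decimals. Of 17378 entries, 26 had names turned into dates and were left out, and 2707 were 0 in every library. Of 8 reference genes of all cells looked up, 1 (Hprt1) was listed at 0 in all 18 libraries, so an exact 0 may be a failed estimate. The small RNA table was not used here. Correlations between libraries were 0.834 to 0.982, and 0 pairs were identical.

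Groups were taken from the labels. Values were log2-transformed after adding 0.5, genes had to reach 1 RPKM in 3 or more libraries (11544 did), and a single limma 3.58.1 model of the 18 libraries (R 4.3.3, moderation with trend and robust, 12 residual degrees of freedom) gave all comparisons. Calls required a p under 0.05 after Benjamini-Hochberg adjustment across all genes tested. The code was tested on simulated data. The 7 members and the gene lists, from general knowledge, were chosen with earlier results of these data known. Beside members, the text names up to 4 genes a list (largest and smallest called log2 fold change in PST vs. PSN, then the highest mean RPKM) and the 6 most like genes by Pearson r. Others are marked, and 1 gene that the rule takes is not reported here. Libraries of a group are described as biological replicates. The p-values rest on a moderated spread within groups, pooled over all 6 groups. In the main model, tumor and normal-looking tissue of the same rat were treated as independent.

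Per a legend of the paper, each tumor had matched normal-looking tissue of its own animal. A paired fit treated tissue libraries with equal numbers as 1 rat, leaving 4 residual degrees of freedom. Their deviations from group means correlated at 0.0965, 0.0886 and 0.193 for PCN with PCT, and 0.128, −0.0496 and 0.0219 for PSN with PST, so the pairing rests on the legend. Alternatives changed the pseudocount, filter, scaling, libraries fitted, moderation, weights and block, and left out each library in turn. Promoter windows and gene names came from RefSeq (GRCr8) tables. Figures used matplotlib 3.10.9, and tables pandas 2.3.3.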

Additional observations from a re-analysis of the deposited data

How the results depend on the processing

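Sprr1a, Krt8 and Krt18 kept their direction in PST vs. PSN under every alternative run, and Sprr1a and Krt8 their call. Krt18 lost its call only when fitted on the 6 libraries compared (adjusted p = 0.0584 in limma), and in PST vs. WSN it lost it under most alternatives, with an adjusted p of up to 0.223 in limma without PST 2. Krt20 in PST vs. PSN passed with array weights (−1.70, adjusted p = 0.00722 in limma) and without PST 2. The log2 fold change of Sprr1a in PST vs. PSN was 8.36 with a pseudocount of 0.1 and 5.32 with 1, and in PCT vs. PCN it was 6.58 and 4.67. Krt19 in PCT vs. PCN was 0.21 without PCN 1. With the same rat as a paired replicate block, log2 fold changes stayed as they were, with adjusted p of 0.000506 for Sprr1a, 0.00738 for Krt8 and 0.0168 for Krt18 in PST vs. PSN in limma. The block changed no call among the members. Median-of-ratios scaling moved the median log2 fold change over all genes in PCT vs. PCN from 0.13 to 0.01, and scaling to epithelial genes moved it to 0.26. Genes called in PCT vs. PCN numbered 3778, against 2313 without PCN 3 and 2367 without PCT 1. In PCN vs. WCN they numbered 15, against 0 to 72 over the alternatives, in PSN vs. PCN 1 against 0 to 4, in PST vs. PCT 0 against up to 18, and for genotype by diet 0 against up to 3. The cause was not tested. With 3 libraries a group and no read totals, small differences and values near 0 are not resolved.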
